A study of Mus musculus with 8 samples.

Results

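The mouse Toll-like receptor genes Tlr1 to Tlr9 and Ticam1, the gene of the adaptor TRIF, were described in CD4+ T cells that had expanded in colitic mice. These 10 genes are a small share of the 22180 genes that the arrays read under a single gene symbol. Each gene was found by its symbol in the platform annotation, and the probe set with the highest mean was to be kept per symbol, but each of the 10 had only 1 probe set. The rule goes by gene symbol. Irak1-/- T cells carrying the CD45.2 form of CD45 and wt T cells carrying the CD45.1 form, both CD4+CD62L+ and of the C57BL/6 strain, were injected together and in equal numbers into Rag1-/- mice. These recipients, shared by both groups, lack T and B cells of their own and keep their myeloid cells. After 14 days each population was sorted as CD3+ CD4+ cells from the mesenteric lymph nodes, with a purity given as above 99.5%. Each of 4 experiments pooled 2 recipients and gave 1 Irak1-/- array and 1 wt array, so the 8 arrays form 4 pairs. The sources used here give no ages for the mice. Since the CD45 forms differ with the genotype, effects of Irak1 and of the genes near the CD45 allele cannot be told apart.

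Toll-like receptors recognise conserved molecules of microbes. On the cell surface, TLR2 pairs with TLR1 or TLR6 to bind bacterial lipopeptides, TLR4 binds lipopolysaccharide and TLR5 binds flagellin. In endosomes, TLR3 binds double-stranded RNA, TLR7 and human TLR8 bind single-stranded RNA, and TLR9 binds DNA with unmethylated CpG. All of them except TLR3 signal through the adaptor MyD88 to the kinases IRAK4 and IRAK1, and on to NF-kappaB, while TLR3 and TLR4 use TRIF. Macrophages and dendritic cells are their best-known sites. In T cells some of them are known as costimulators, with TLR2 the best described.

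Tlr1 and Tlr6 are neighbours on chromosome 5 and encode the alternative partners of TLR2, so the promoters of these 3 genes are shown to let their sequences be compared beside their levels. The windows come from RefSeq on GRCm38.p6, each 300 bases from 250 before to 50 after a transcript start. Where a gene had more than 1 window, the outermost is shown. Capitals mark the 50 bases from the transcript start on. The Tlr1 window lies at chr5:64933509-64933808 on the minus strand, the Tlr6 window at chr5:64959999-64960298 on the minus strand, and the Tlr2 window at chr3:83841559-83841858 on the minus strand.
Tlr1: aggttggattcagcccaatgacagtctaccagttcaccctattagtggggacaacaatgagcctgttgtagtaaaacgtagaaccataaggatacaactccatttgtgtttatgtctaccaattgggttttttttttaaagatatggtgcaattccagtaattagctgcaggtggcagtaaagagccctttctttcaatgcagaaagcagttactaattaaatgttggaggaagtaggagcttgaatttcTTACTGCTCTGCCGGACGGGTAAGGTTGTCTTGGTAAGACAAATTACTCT
Tlr6: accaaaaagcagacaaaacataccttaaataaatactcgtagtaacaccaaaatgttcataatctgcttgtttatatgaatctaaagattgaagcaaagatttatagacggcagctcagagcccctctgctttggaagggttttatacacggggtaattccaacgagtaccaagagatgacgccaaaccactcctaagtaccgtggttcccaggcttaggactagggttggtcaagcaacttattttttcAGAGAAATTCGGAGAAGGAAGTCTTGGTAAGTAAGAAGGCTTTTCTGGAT
Tlr2: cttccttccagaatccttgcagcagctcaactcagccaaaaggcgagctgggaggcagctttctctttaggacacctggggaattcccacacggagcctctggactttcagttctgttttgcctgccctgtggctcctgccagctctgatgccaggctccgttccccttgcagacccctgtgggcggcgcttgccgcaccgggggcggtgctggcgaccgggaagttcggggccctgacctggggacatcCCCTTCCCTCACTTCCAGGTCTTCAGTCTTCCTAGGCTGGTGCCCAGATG
The Tlr1 window held 3 CpG dinucleotides, the Tlr6 window 7 and the Tlr2 window 11, beside a median of 7 over all 32851 windows. Tlr1 and Tlr6 each had an inner window too, and there the order was turned, with 9 CpG in Tlr1 and 5 in Tlr6. Of all windows, 68.6% had more CpG than the outer Tlr1 window and 43.5% more than the inner one, 48.6% more than the outer Tlr6 window and 56.4% more than the inner one, and 39.6% more than the Tlr2 window. Guanine and cytosine made up 40.3% of the outer Tlr1 window, 40.3% of the outer Tlr6 window and 62% of the Tlr2 window, beside a median of 52.7% over all windows. The table had 10 windows of 8 of the genes, with 0 CpG in Tlr9 at the low end and 11 in Tlr2 at the high end. Tlr4 and Tlr7 were not in the promoter table.

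The arrays gave log2 levels, with array medians from 4.25 to 4.31. Levels of different probe sets are not directly comparable. Each gene is placed against the median of all 41345 probe sets on its own array, a rough scale that does not remove that limit. The Irak1-/- array of pair 3 stood apart from the rest, since its correlations with the other arrays ran from 0.950 to 0.957 over all probe sets. Of the markers of the labelled cell type, all 8 measured, Cd3d, Cd3e, Cd3g, Cd4, Cd2, Cd5, Cd28 and Thy1, lay far above the median on all 8 arrays, with mean levels from 8.98 to 11.26. Irak1 read 6.93, 6.83, 6.997 and 6.61 on the Irak1-/- arrays of pairs 1 to 4, against 7.16, 6.89, 6.64 and 6.39 on the wt arrays. The groups overlapped, and the sources used here do not say which part of Irak1 was deleted, so this probe set does not check the genotype. The arrays were deposited as separate replicate experiments on pooled recipients, and having only 4 per group limits how precise any value can be.

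Members of the family lay on both sides of the array median. Tlr1, Tlr6, Tlr9 and Ticam1 read above the array median on all 8 arrays, as did 45.1% of all genes. Tlr2 sat at the median, above it on 5 of 8 arrays. Tlr3, Tlr4, Tlr5, Tlr7 and Tlr8 read under the median on all 8 arrays, as did 40.5% of all genes. No background level came with the arrays, so levels under the median cannot be placed relative to it. Genes with a mean level of at least 3.90 over all arrays, the 40th percentile, entered the main test of genotype, which left 5 of the 10 genes, Tlr1, Tlr2, Tlr6, Tlr9 and Ticam1.

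**Figure D1:**
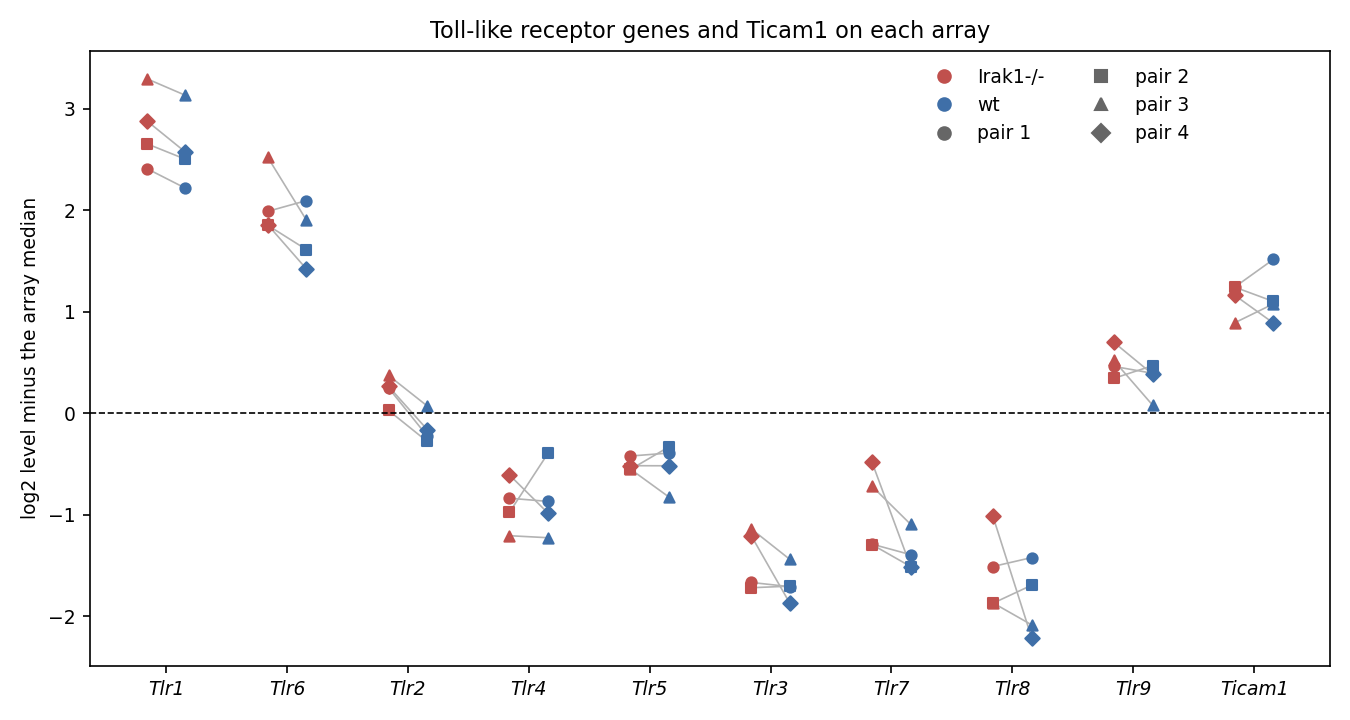
The vertical axis is the log2 level minus the median of the same array, with Irak1-/- arrays in red on the left and wt arrays in blue on the right for each gene, and lines join the arrays of a pair. Tlr1 lies between 2.22 and 3.30 above the median, Tlr2 lies near 0, and Tlr3, Tlr4, Tlr5, Tlr7 and Tlr8 lie below 0 on all 8 arrays.

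Genotype was the main comparison, and none of the Toll-like receptor genes or Ticam1 passed the test. Of the 5 genes tested, 0 had a limma adjusted p under 0.05, against 0.0676% of the 13308 genes tested that were higher and 0.00751% that were lower at that threshold. At an unadjusted p under 0.05 there was 1 gene, Tlr2, which was higher, against 2.88% of all genes tested that were higher at that p. A fit without the level filter took in all 22180 genes and called 0 of the 10, against 0.0361% of all genes called higher and 0.00451% called lower. In that fit Tlr2 and Tlr7 were higher at an unadjusted p under 0.05, against 2.69% of all genes. Differences below are Irak1-/- minus wt on the log2 scale, with the standard error (SE) or the 95% confidence interval of the fit with pairs as a block.

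Tlr2, the shared partner of the lipopeptide receptors, had the smallest p of the family. It read 4.50, 4.32, 4.68 and 4.57 on the Irak1-/- arrays of pairs 1 to 4, against 4.04, 3.99, 4.35 and 4.15 on the wt arrays. The Irak1-/- array was higher in 4 of 4 pairs, by 0.46, 0.33, 0.33 and 0.42, while the groups touched, since the lowest Irak1-/- level lay just under the highest wt level. The mean difference was 0.39 (SE 0.104, limma adjusted p = 0.450), a 1.31-fold higher level with a 95% confidence interval from 1.11 to 1.54. With levels this near the array median and no background level given, the size of this difference is uncertain. All 4 Irak1-/- arrays read above their median, against 1 of 4 wt arrays, as the plot of levels by array shows. This split depends on the median used, which is that of all probe sets. Against the median of the 22180 genes alone, Tlr2 read under it on the Irak1-/- array of pair 2, at 4.32 against 4.35. The wt array of pair 3 also read under that median, at 4.349 against 4.353. The adjusted p ran from 0.433 to 0.865 over 12 alternative settings.

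Tlr1, whose product joins TLR2 to bind triacylated lipopeptides, read 6.66, 6.95, 7.60 and 7.18 on the Irak1-/- arrays, against 6.48, 6.77, 7.41 and 6.88 on the wt arrays. The Irak1-/- array was again higher in 4 of 4 pairs, by 0.18, 0.18, 0.19 and 0.30, but the groups overlapped over most of their range. On average it was higher by 0.21 (SE 0.103, limma adjusted p = 0.783), and the 95% confidence interval ran from -0.02 to 0.45.

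Pairs differed from each other far more than genotypes did for Tlr1. The mean of the 2 arrays of a pair ran from 6.57 in pair 1 to 7.51 in pair 3. The standard deviation (SD) of the 4 pair means was 0.393, beside a mean genotype difference of 0.21. The SD of the 4 differences within pairs, which measures how evenly the genotypes differed and not by how much, was 0.0585. The medians of these SDs over the 13308 genes tested were 0.137 and 0.238. Both genotypes put the pairs in the same order for Tlr1, with pair 1 lowest, then pairs 2 and 4, and pair 3 highest. Tlr2 also had the same order in both genotypes, with pair 2 lowest, then pairs 1 and 4, and pair 3 highest. Such a shared order was found for 6.06% of the genes tested. Tlr6, Tlr9 and Ticam1 had different orders in the 2 genotypes.

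Tlr6, whose product joins TLR2 to bind diacylated lipopeptides, read 6.24, 6.15, 6.83 and 6.16 on the Irak1-/- arrays, against 6.36, 5.88, 6.18 and 5.73 on the wt arrays. The Irak1-/- array was higher in 3 of 4 pairs and lower in pair 1, by amounts of -0.12, 0.27, 0.65 and 0.43. The mean difference was 0.31 (SE 0.139, limma adjusted p = 0.775). The highest level came from the Irak1-/- array of pair 3, which stood apart over all genes. Without pair 3 the difference was 0.19, and with that array alone left out of an unpaired fit it was 0.14. In that unpaired fit Tlr1 had a difference of 0.05, against 0.22 when both arrays of pair 3 were left out. Here and below, the unpaired fit keeps the wt array of pair 3, so differences between pairs enter its values. Tlr1 and Tlr6 are close relatives in sequence, and whether their probe sets read each other's RNA was not tested.

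The other surface receptors read low. Tlr4, the lipopolysaccharide receptor, read 3.41, 3.32, 3.10 and 3.69 on the Irak1-/- arrays, against 3.39, 3.87, 3.05 and 3.32 on the wt arrays. Its pairs were split, with a mean difference of -0.03 and a 95% confidence interval from -0.39 to 0.33 in the fit without the level filter (limma adjusted p = 0.994). Tlr5, the flagellin receptor, read 3.83, 3.74, 3.76 and 3.78 on the Irak1-/- arrays, against 3.87, 3.93, 3.45 and 3.79 on the wt arrays. The Irak1-/- arrays lay within the range of the wt arrays, and the mean difference was 0.01, with an interval from -0.27 to 0.30 (limma adjusted p = 0.995). The sign of both means changed when single pairs were left out.

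Among the endosomal receptors in the 10 genes, Tlr9 was the only one to read above the array median. Its product binds CpG DNA. It read 4.71, 4.64, 4.83 and 5.0004 on the Irak1-/- arrays, against 4.66, 4.73, 4.36 and 4.69 on the wt arrays. The Irak1-/- array was higher in 3 of 4 pairs, the groups overlapped, and the mean difference was 0.18 (SE 0.126, limma adjusted p = 0.872). It was 0.09 without pair 3 and 0.28 without pair 2.

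Tlr7, a receptor for single-stranded RNA, read 2.96, 3.00, 3.59 and 3.82 on the Irak1-/- arrays, against 2.87, 2.75, 3.18 and 2.80 on the wt arrays. It was higher in 4 of 4 pairs, by 0.09, 0.25, 0.40 and 1.02, and the groups overlapped. The mean difference was 0.44 (SE 0.164) in the fit without the level filter, with a 95% confidence interval from 0.07 to 0.82 and a limma adjusted p of 0.790. Pair 4 carried much of it, and without that pair the difference was 0.25. These levels lay under the array median on all 8 arrays, so the size of the difference is uncertain.

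Tlr8, the neighbour of Tlr7 on chromosome X and, in humans, another receptor for single-stranded RNA, read 2.74, 2.42, 2.44 and 3.28 on the Irak1-/- arrays, against 2.84, 2.57, 2.19 and 2.10 on the wt arrays. The difference was 1.19 in pair 4 and between -0.15 and 0.25 in the other pairs. The mean of 0.30 (SE 0.215, limma adjusted p = 0.932 without the level filter) came to -0.002 without pair 4. Tlr3, the receptor for double-stranded RNA, read 2.58, 2.57, 3.17 and 3.09 on the Irak1-/- arrays, against 2.55, 2.56, 2.84 and 2.44 on the wt arrays. It was higher in 4 of 4 pairs, though by only 0.03 and 0.01 in pairs 1 and 2. Its mean difference was 0.26 (SE 0.143, limma adjusted p = 0.898 without the level filter), or 0.12 without pair 4. Tlr3, Tlr7 and Tlr8 each had their highest difference in pair 4, as did Tlr1, Tlr4 and Ticam1. Of the 10 genes, 9 were positive in pair 4 and 9 in pair 3, against 6 in pair 1 and 6 in pair 2.

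Ticam1, which encodes TRIF, read 5.49, 5.54, 5.20 and 5.46 on the Irak1-/- arrays, against 5.78, 5.37, 5.36 and 5.20 on the wt arrays. The pairs were evenly split and the groups overlapped. Its mean difference of -0.002 (SE 0.128, limma adjusted p = 0.998) had a 95% confidence interval from -0.29 to 0.29. Median centring and quantile normalization turned that sign, to 0.020 and 0.012.

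**Figure D2:**
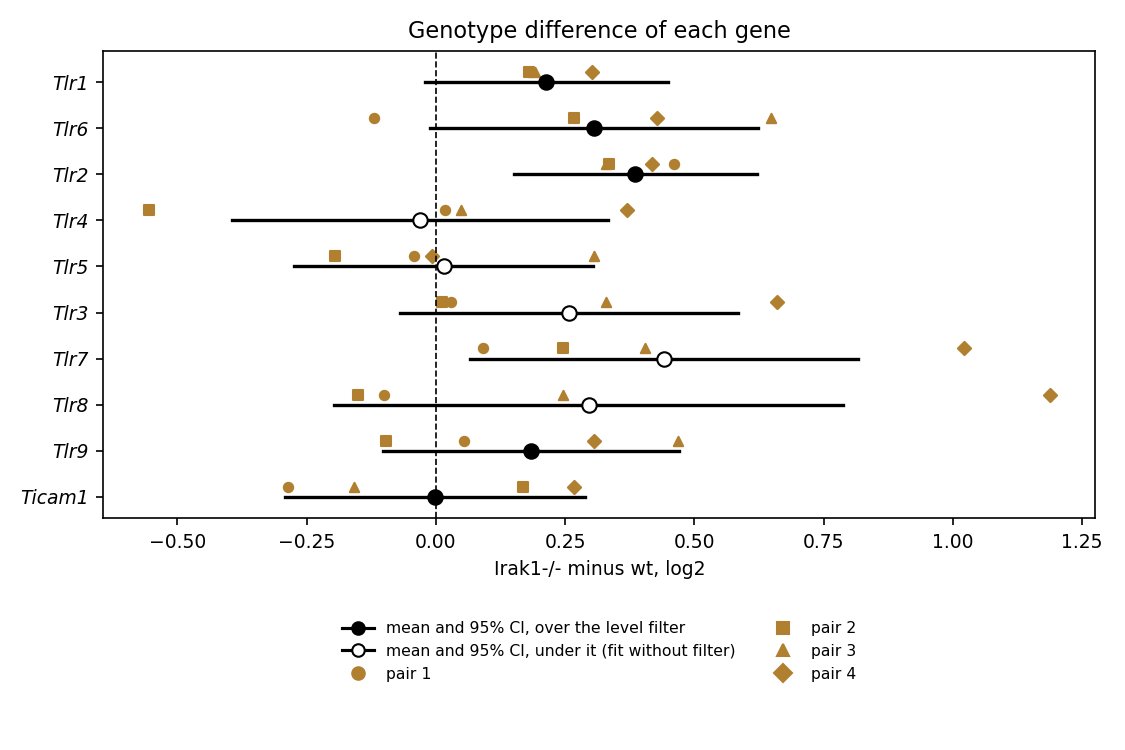
The horizontal axis is the Irak1-/- minus wt difference on the log2 scale, with the mean and 95% confidence interval in black (filled for the 5 genes over the level filter, open for the 5 under it, from the fit without the filter) and the 4 pairs as small symbols. The intervals of Tlr2 and Tlr7 lie above 0 before adjustment over all genes, and in pair 4 Tlr7 and Tlr8 reach 1.02 and 1.19.

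Across the family, 8 of 10 genes had a mean difference above 0, against 44.3% of all 22180 genes, and 9 of 10 did with quantile normalization or median centring, through Ticam1. With single pairs left out, the count was 9 without pair 1 or pair 2, 8 without pair 3 and 7 without pair 4. Tlr1, Tlr2, Tlr3 and Tlr7 were higher on the Irak1-/- array in 4 of 4 pairs, against 5.5% of all genes, and 0 were lower in 4 of 4 pairs, against 7.93%. For 0 of the 10 did the groups stand clear of each other with Irak1-/- higher, against 1.19% of all genes. The median difference over the 10 genes was 0.24, beside -0.02 over all 22180 genes. The family means were 0.03, 0.02, 0.28 and 0.50 in pairs 1 to 4. The median was 0.13 without pair 4, 0.21 without pair 3, and 0.15 in the unpaired fit that lacked only the Irak1-/- array of pair 3.

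Some markers of macrophages and monocytes rose on the same Irak1-/- arrays. Of 16 such markers 12 were over the level filter, 3 of these rose past the adjusted threshold, and 16 of 16 had a positive mean difference, or 14 without pair 2 or pair 3. The 3 were Lyz2, a lysozyme, and Tyrobp and Fcer1g, adaptors of activating receptors, with differences of 4.16, 2.47 and 1.89 (limma adjusted p = 0.00161, 0.00176 and 0.00176). The levels summed on a linear scale ran from 744 to 1325 on the Irak1-/- arrays and from 364 to 422 on the wt arrays. The other 9 tested did not pass, among them Adgre1, a macrophage surface receptor, at 0.27 (limma adjusted p = 0.812), Cd68, a lysosomal protein, at 0.16 (0.895), the complement gene C1qa at 0.14 (0.910) and Itgam, the gene of CD11b, at 0.05 (0.969), and the groups overlapped for these 4. At an unadjusted limma p under 0.05, 7 of the 12 were higher, the 3 called among them, against 2.88% of all genes tested. Of all 16, 7 were higher in 4 of 4 pairs, against 5.5% of all genes. The median difference over the list was 0.35, or 0.56 over the 12 tested, and its mean was 0.80. The list had means of 0.48, 0.85, 1.01 and 0.85 in pairs 1 to 4 but medians of 0.24, 0.43, 0.67 and 0.30, against medians of 0.02, 0.09, 0.32 and 0.39 for the receptor genes. By medians the receptor genes lay above these markers in pair 4, at 0.39 against 0.30. By means the receptor genes lay below the markers in that pair, at 0.50 against 0.85. Cd14, Mertk, Mrc1 and Ms4a7 read under the median on all 8 arrays. In these bulk samples, fewer cells of a type and less RNA per cell cannot be told apart. The part of such cells in the differences of Tlr2, Tlr7 and the other receptors was not tested.

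Other cell types were checked by the same kind of list. Dendritic cell markers had 9 of 10 over the filter, with H2-Aa, an MHC class II chain, called higher at 1.74 (limma adjusted p = 0.00317) and summed levels of 592 to 897 on the Irak1-/- arrays against 438 to 487 on the wt arrays. Of the 10 measured, 8 had a positive mean difference, against 44.3% of all genes, and 6 were higher in 4 of 4 pairs, against 5.5%. At an unadjusted limma p under 0.05, 4 were higher and 1 was lower, against 2.88% and 3.82% of all genes tested. The list median was 0.13, in a range from -0.59 to 1.77. Itgax, the gene of the integrin CD11c, was lower in 4 of 4 pairs, by a mean of 0.59 that did not pass the test (limma adjusted p = 0.501). Flt3 and Xcr1, which mark dendritic cells, were under the median on all 8 arrays. Neutrophil markers had 5 of 10 over the filter and 0 called, with summed levels of 191 to 543 on the Irak1-/- arrays against 148 to 211 on the wt arrays. Their smallest limma adjusted p was 0.0635. The list median was 0.28, or 0.08 over the 5 tested, with 7 positive and 3 negative differences in a range from -0.43 to 2.62. In 4 of 4 pairs, 3 were higher and 1 was lower, against 5.5% and 7.93% of all genes. The mean over this list was 0.46. Of the 5 tested, 2 were higher and 0 lower at an unadjusted limma p under 0.05, against 2.88% and 3.82% of all genes tested. Plasmacytoid dendritic cells and B cells are known for TLR7 and TLR9. Their markers had 7 of 8 and 6 of 7 over the filter, 0 called in either list, and median differences of -0.08 and -0.01. Their summed levels were 363 to 563 on the Irak1-/- arrays against 492 to 633 on the wt arrays for plasmacytoid dendritic cells, and 124 to 136 on the Irak1-/- arrays against 120 to 144 on the wt arrays for B cells. The B cell median turned to 0.003 with quantile normalization and 0.01 with median centring. Ms4a1, which encodes the B cell protein CD20, was under the median on all 8 arrays. NK cell markers had 5 of 5 over the filter and 0 called, with summed levels of 666 to 846 on the Irak1-/- arrays against 956 to 1162 on the wt arrays. The NK cell list had 2 positive and 3 negative differences and a median of -0.05, or -0.32 in the unpaired fit lacking the Irak1-/- array of pair 3. Its mean was -0.24, with pair means from -0.27 to -0.21. Of the 5 NK cell genes, 2 were lower and 0 higher at an unadjusted limma p under 0.05, against 3.82% and 2.88% of all genes tested. Klrd1, the gene of CD94, was the brightest of these probe sets and had -0.55 (limma adjusted p = 0.401). Such sums follow the brightest probe sets of a list. The part of any of these cells in the receptor levels was not tested.

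**Figure D3:**
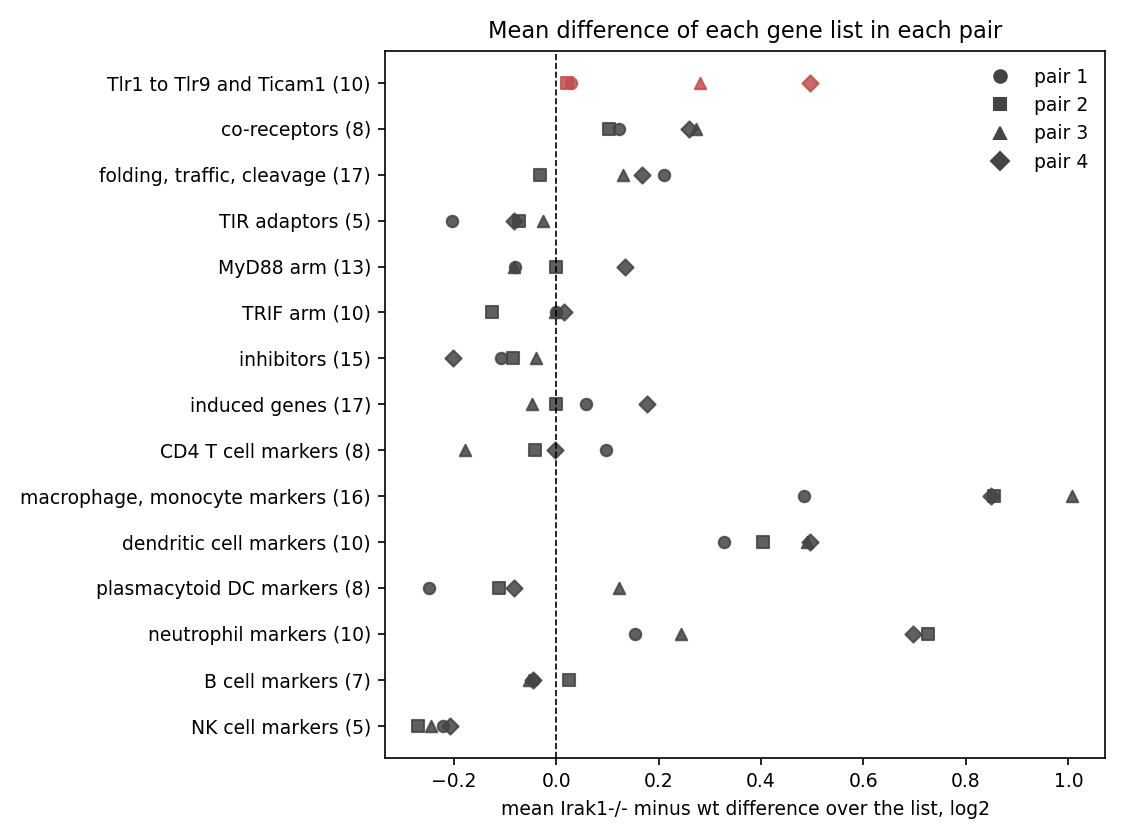
The horizontal axis is the mean Irak1-/- minus wt difference on the log2 scale over the measured genes of each list (their number in parentheses), with 1 symbol per pair and the Toll-like receptor genes in red. The Toll-like receptor genes lie between 0.02 and 0.50, the macrophage and monocyte markers between 0.48 and 1.01, and the T cell markers between -0.18 and 0.10. By medians over the genes, the Toll-like receptor genes lie between 0.02 and 0.39 and the macrophage and monocyte markers between 0.24 and 0.67.

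The rest of the receptor pathway was read through lists given by role. Of the mouse receptors outside the 10 genes, Tlr12 was over the filter, with a difference of -0.20 (limma adjusted p = 0.868). Tlr11 and Tlr13 were under it. Tlr13, a receptor for bacterial ribosomal RNA in mice, averaged 3.99 ± 1.07 on the Irak1-/- arrays and 2.87 ± 0.657 on the wt arrays (SD, n = 4 each). Its difference of 1.12 had a limma adjusted p of 0.8003 without the level filter and came to 0.65 without pair 3.

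Co-receptors of the cell surface had 5 of 8 over the filter and 0 called. Ly86, the gene of MD-1, a partner of the TLR4 relative RP105, averaged 4.88 ± 0.344 on the Irak1-/- arrays and 4.12 ± 0.0450 on the wt arrays (SD, n = 4 each). It was higher in 4 of 4 pairs, by a mean of 0.76 (limma adjusted p = 0.167). Lbp, a carrier of lipopolysaccharide, had -0.23, Trem1, a receptor that amplifies inflammatory signals, -0.14, and Hmgb1, a nuclear protein that cells can release, 0.06. The list had a median of 0.09 beside -0.02 over all 22180 genes. Its 3 genes under the filter read under the median on all 8 arrays. Without the filter, Cd180, the gene of RP105, had 0.58, Cd14 0.43 and Cd36 0.11 (limma adjusted p = 0.684, 0.784 and 0.974). The groups of Cd180 and Ly86 did not overlap, as for 1.19% of all genes with Irak1-/- higher. In 4 of 4 pairs, 2 of the 8 were higher and 1 was lower, against 5.5% and 7.93% of all genes.

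Genes that fold, move or cleave the receptors had 16 of 17 over the filter and 0 called. Of the 16 tested, 3 were higher and 0 lower at an unadjusted limma p under 0.05, against 2.88% and 3.82% of all genes tested. Of all 17, 4 were higher and 0 lower in 4 of 4 pairs, against 5.5% and 7.93% of all genes. Ctss and Ctsl, cathepsins that cut endosomal receptors into their active form, had differences of 0.43 (limma adjusted p = 0.473) and 0.34 (0.643), each higher in 4 of 4 pairs. Slc15a4 and Slc15a3, transporters of the endosomal membrane, had 0.26 and 0.28 (limma adjusted p = 0.739 and 0.812). The list's median was 0.09.

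Adaptors and kinases showed small differences. All 5 TIR adaptors or adaptor-like genes measured were over the filter and 0 were called. Their mean differences were all negative, although 1 of the 5 was positive with quantile normalization or median centring, and 3 were without pair 1. Pik3ap1, the adaptor BCAP, had -0.30. Myd88, the adaptor of nearly all the receptors, had -0.07 (limma adjusted p = 0.948), Tirap, which brings MyD88 to the membrane, -0.05, and Ticam2, the bridge from TLR4 to TRIF, -0.05. The MyD88 arm had 13 of 13 measured genes over the filter and 0 called, with a median of 0.02. Its smallest p values belonged to Tab3 (-0.23) and Tab2 (-0.15), which tie the kinase TAK1 to ubiquitin chains, the transcription factor gene Irf7 (-0.15) and Ube2v1 (0.18), a partner of a ubiquitin-conjugating enzyme. Without pair 4 Ube2v1 turned to -0.10, and without pair 3 Tab3 came to -0.05. The TRIF arm had 10 of 10 over the filter and 0 called, with a median of -0.06. The adaptor gene Tradd had -0.13, the kinase gene Ikbke -0.12, and Tbkbp1 and Azi2, which encode adaptors of the kinase TBK1, had 0.17 and -0.09. Tbkbp1 turned to -0.11 without pair 3.

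Inhibitors of the pathway had 14 of 15 over the filter and 0 called, with a median of -0.17 beside -0.02 over all 22180 genes. That median was -0.08 in the unpaired fit lacking the Irak1-/- array of pair 3 and -0.07 without pair 3 or without pair 4. At an unadjusted p under 0.05, 4 were lower and 1 was higher, against 3.82% and 2.88% of all genes tested. Nfkbia, the inhibitor of NF-kappaB, had -0.43 (limma adjusted p = 0.481), Zc3h12a, an RNase that degrades cytokine mRNA, -0.47 (0.504), and Tnfaip3, the ubiquitin editor A20, -0.29 (0.675). Socs1, an inhibitor of cytokine signals, had 0.27 (0.708). Genes induced by these receptors in macrophages had 12 of 17 over the filter. Il1b, the gene of the cytokine interleukin-1 beta, rose by 1.45 (limma adjusted p = 0.00672), and 0 others were called in either direction. The limma adjusted p of Il1b came to 0.0519 without pair 2 and 0.0513 without pair 4. The list had a median of 0.07, or -0.01 without pair 1. The cytokine gene Tnf and the chemokine genes Ccl5 and Ccl4 had -0.50, -0.29 and -0.36, each lower in 4 of 4 pairs (limma adjusted p = 0.404, 0.711 and 0.741). These 3 were lower and Il1b alone was higher at an unadjusted limma p under 0.05, against 3.82% and 2.88% of all genes tested.

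Among the genes over the level filter, Tlr1 and Tlr6 varied most over the 8 arrays within the family, with ranges of 1.12 and 1.10. The genes most like Tlr1 by Pearson correlation were Snord89 (r = 0.980), Cd209a (r = 0.974) and Platr14 (r = 0.973). Those most like Tlr6 were Rhot1 (r = 0.976), Nudt6 (r = 0.968) and Capsl (r = 0.955). These values describe 8 arrays, of which each pair shares its recipients, and they were the highest of 13307 genes compared. A correlation over 0.8 was found for 239 genes with Tlr1 and 199 genes with Tlr6.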

How the data were processed

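The authors deposited log2 levels per probe set for 8 Affymetrix arrays of biotin-labelled RNA, extracted with TRIzol per the labels' protocols. The sources used here name no method of background correction, summarization or normalization. The table held 41345 probe sets, of which 23521 carried 1 gene symbol. Of these, 23328 were matched by gene identifier to the GRCm38.p6 gene table and took its symbols. The probe set with the highest mean was kept for each of 22180 genes.

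Genotypes were compared with limma 3.58.1 (lmFit and eBayes, R 4.3.3) with the batch label as a block, over 13308 genes at or above the 40th percentile of mean level. P values were two-sided and adjusted by the Benjamini-Hochberg method. Arrays were paired through the labels' batch number, since both cell populations of a batch shared their recipients. Deviations of paired arrays from their group means correlated at 0.185, 0.143, 0.201 and 0.0799. The fit was tested on simulated arrays. Lists got no test of their own. Named genes are all 10 members, Irak1, Ptprc, called list genes, and the 4 with the smallest p of each list in the main test. Tlr11, Tlr13, markers, and the 3 genes most like each of the 2 most variable members are named too. Beside these named genes, the co-receptor and trafficking genes under the level filter are given. Ptprc read 11.01 ± 0.0581 on Irak1-/- and 10.90 ± 0.0753 on wt arrays (SD, n = 4 each). The members and lists were chosen with earlier results of these data known.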

Additional observations from a re-analysis of the deposited data

Results flagged for a closer look

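Among 94 groups of 4 arrays examined for the named genes, 5 held an array far from the other 3 of its group, and chance flags about 1 in 20 groups. Tlr6 read 6.83 on the Irak1-/- array of pair 3, the highest of its group. Ticam2 read 4.68 on that same array, again the highest. Ctsl read 4.42 on the Irak1-/- array of pair 1, the lowest of its group. On the wt array of pair 3, Ptprc read 11.01 and Tyrobp read 5.96, each the highest of its group.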

How the results depend on the processing

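For the 10 genes, 128 combinations of gene and alternative were compared over 13 alternatives, and 123 kept the direction and side of the threshold of the value reported or, for genes with no main test, stayed within the SD of the pair differences. The other 5 were Ticam1, whose sign turned to 0.0117 with quantile normalization, to 0.0200 with median centring, and to 0.0726 in an unpaired fit lacking Irak1-/- replicate 3. With each pair left out in turn its difference ran from -0.0918 to 0.0923. Under all alternatives, the fit without the replicate block included, 0 of the 10 genes were called, and the median difference over them ran from 0.13 to 0.30. Tlr2 and Tlr9 were too low to be tested with the filter at the 60th percentile. Over all genes, the calls were 14 higher and 2 lower with batch as a random block, 19 and 2 with median centring, 12 and 2 with the filter at the 60th percentile, and 13 and 3 with trend and robust settings, beside 9 and 1 in the fit reported. With each pair left out in turn, 6 to 16 were higher and 1 was lower. Without the replicate block the calls were 10 higher and 1 lower, and that fit changed no call among the 10 genes. When single pairs were left out, list medians ran from 0.01 to 0.15 for co-receptors, from 0.05 to 0.13 for receptor trafficking, from -0.12 to 0.04 for adaptors, from -0.07 to 0.03 for the MyD88 arm and from -0.06 to -0.02 for the TRIF arm.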
